A study of Rattus norvegicus with 14 samples.

Results

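Crem, Creb1, Sik1, Nr4a1, Nr4a2, Nr4a3 and Gem are 7 genes tied to cyclic AMP (cAMP) signalling, chosen by their symbols, and all 7 were among the 16472 genes of the series. Their expression was followed in the pineal gland and the retina of Sprague-Dawley rats, 6 to 8 weeks old, on a cycle of 14 h light and 10 h dark. Late dark pineal glands were collected at zeitgeber time (ZT, hours after lights on) 19 and 23, early dark glands at ZT15, and light-phase glands at ZT1, ZT7 and ZT13. Retinas were collected at the same 6 times. Mixed tissue, equal RNA of 15 tissues that include the retina, was collected at ZT19 and ZT7. Each of the 12 pineal and retina libraries was 1 pool of 10 animals, and each of the 2 mixed libraries was 1 pool of 3 animals, so a single time has no error of its own. The series asked which transcripts follow a daily rhythm and which are enriched in pineal tissue.

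In the rat pineal gland, noradrenaline released at night acts on adrenergic receptors and raises cAMP, which activates protein kinase A. The kinase phosphorylates CREB, the product of Creb1, a transcription factor that is already bound to cAMP response elements before the signal comes. Crem encodes relatives of CREB, among them ICER, a short repressor made from an internal promoter of the gene and known from the rat pineal gland at night. Sik1 encodes a salt-inducible kinase that restrains CREB coactivators. Nr4a1, Nr4a2 and Nr4a3 encode orphan nuclear receptors that are induced as immediate early genes in many cells. Gem encodes a small GTPase of the RGK family, which inhibits voltage-gated calcium channels.

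Promoter sequences are shown because these genes differ in how many cAMP response element motifs lie near their starts. RefSeq windows of 300 bases, from 250 before to 50 after a transcript start in the GRCr8 assembly, were matched for 5 of the 7 genes, all but Nr4a3 and Gem, with 8 windows in all. Below, capitals mark TGACG or its reverse complement CGTCA, the core of the element, and each sequence runs 5′ to 3′ on the strand of the gene. The Crem windows are on the plus strand at chr17:58933816-58934115, chr17:58984547-58984846 and chr17:58985240-58985539. The first Creb1 window is on the plus strand at chr9:73397259-73397558, Sik1 is on the minus strand at chr20:9958597-9958896, and Nr4a1 is on the plus strand at chr7:134259888-134260187.
Crem window 1: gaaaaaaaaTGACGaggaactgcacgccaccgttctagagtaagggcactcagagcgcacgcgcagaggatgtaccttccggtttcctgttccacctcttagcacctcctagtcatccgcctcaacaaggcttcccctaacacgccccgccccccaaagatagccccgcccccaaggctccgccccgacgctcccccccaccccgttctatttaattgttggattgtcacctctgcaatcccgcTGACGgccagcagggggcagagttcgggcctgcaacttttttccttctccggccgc
Crem window 2: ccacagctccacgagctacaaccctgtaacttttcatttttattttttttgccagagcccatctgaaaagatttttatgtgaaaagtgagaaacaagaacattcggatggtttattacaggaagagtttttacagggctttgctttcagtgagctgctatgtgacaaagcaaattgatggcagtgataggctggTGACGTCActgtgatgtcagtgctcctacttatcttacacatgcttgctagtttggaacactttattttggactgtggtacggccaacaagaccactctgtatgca
Crem window 3: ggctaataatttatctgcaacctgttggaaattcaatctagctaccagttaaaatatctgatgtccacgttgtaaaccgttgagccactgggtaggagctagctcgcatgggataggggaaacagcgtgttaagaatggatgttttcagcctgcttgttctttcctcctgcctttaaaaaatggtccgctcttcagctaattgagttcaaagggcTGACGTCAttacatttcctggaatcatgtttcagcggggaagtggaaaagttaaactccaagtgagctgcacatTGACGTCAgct
Creb1 window 1: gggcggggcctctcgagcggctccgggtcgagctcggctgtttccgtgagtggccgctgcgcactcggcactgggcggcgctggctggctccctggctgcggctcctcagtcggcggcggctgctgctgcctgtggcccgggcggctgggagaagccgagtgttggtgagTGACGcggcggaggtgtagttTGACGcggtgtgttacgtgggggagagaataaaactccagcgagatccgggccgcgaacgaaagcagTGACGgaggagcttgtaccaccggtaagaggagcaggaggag
Sik1: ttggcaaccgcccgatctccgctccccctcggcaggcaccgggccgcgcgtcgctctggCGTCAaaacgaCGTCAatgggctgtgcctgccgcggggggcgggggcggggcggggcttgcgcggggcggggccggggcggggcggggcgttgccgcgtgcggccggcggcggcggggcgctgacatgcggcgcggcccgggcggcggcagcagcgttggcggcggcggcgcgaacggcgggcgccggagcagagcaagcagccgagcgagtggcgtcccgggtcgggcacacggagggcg
Nr4a1: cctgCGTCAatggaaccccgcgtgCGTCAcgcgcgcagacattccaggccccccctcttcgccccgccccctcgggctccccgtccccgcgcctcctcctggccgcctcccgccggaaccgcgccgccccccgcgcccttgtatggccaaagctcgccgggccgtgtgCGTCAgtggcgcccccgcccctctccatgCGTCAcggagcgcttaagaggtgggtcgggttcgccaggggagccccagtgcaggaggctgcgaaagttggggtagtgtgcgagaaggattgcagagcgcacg

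The full palindromic element TGACGTCA was found in Crem windows 2 and 3, whose starts lie 50731 and 51424 bases into the gene. Counting the transcript start as 0, it began at position -56 in window 2, and at positions -35 and 39 in window 3. Of all 33469 windows in the table, 1.83% held this motif at least once and 0.0418% held it at 2 or more places. The first Crem window, at the upstream start, held 2 TGACG cores and no full element. The Nr4a1 window held the core at 4 places, each as TGACGCA or its reverse complement; 0.236% of all windows held the core at 4 or more places, and 1.9% held TGACGCA. The Creb1 window shown held 3 cores, the Sik1 window 2 and the Nr4a2 window 1, and 21.2% of all windows held at least 1. Both strands were searched, and a full element counts as 2 overlapping cores. AAAGGTCA, the monomer site of NR4A receptors, was found in the second Creb1 window alone among the 8, and in 1.43% of all windows. Such matches describe the letters and do not show binding.

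Expression values are FPKM, which count fragments over a transcript's length and the size of its library, and exact depth was not known. The FPKM worth of 1 fragment per kilobase was estimated at 0.0527 and 0.048 in the late dark pineal libraries (ZT19 and ZT23). It was 0.0339 to 0.0368 in the light-phase ones, so by this estimate the late dark libraries were the shallower. The estimate rests on 18 and 23 olfactory receptor transcripts above 0 at ZT19 and ZT23, and on 31 to 35 in the light. Between 8852 and 11399 genes reached 1 FPKM in a library. The pineal libraries carried their marker Tph1, an enzyme of serotonin synthesis, at 2968 to 3848 FPKM. Blood markers (3 of 3 found) summed to 990 FPKM at ZT19 and 1504 at ZT23 in the pineal gland, against 1498 to 1862 in the light. The sums of microglia, endothelium and meninges markers were also at their lowest at ZT19, though Aif1, Cx3cr1 and Dcn alone were lowest at ZT7, ZT15 and ZT1. Choroid plexus markers (3 of 3 found) summed to 3591 FPKM at pineal ZT15, against 669 to 1158 in the other pineal libraries. Cldn5, an endothelial marker, was listed at 0 in all 14 libraries. The part of depth and of these markers in the results below was not tested, and in such bulk samples fewer cells of a type and less RNA per cell cannot be told apart.

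In the pineal gland, Sik1, Crem, Nr4a1 and Gem rose in the late dark, while Creb1 and Nr4a2 did not pass the test. These 4 are 4 of the 6 genes that could be tested, against a background in which 3.04% of all 10416 tested genes were higher and 4.23% were lower. The genes were chosen with earlier results of these data known. Shares of them set against all genes, here and below, are therefore descriptions and no independent test. All tests used limma on log2(FPKM + 1), adjusted over all tested genes with a threshold of 0.05; differences on this scale understate the change of weakly expressed genes. The median difference of all tested genes was -0.12 on this scale and that of the 6 genes was 2.29. In the fits of both tissues over time, each gene has 1 error shared by pineal gland and retina. Its SE in 1 tissue therefore also holds the spread of the other. Over all genes 317 were higher and 441 lower on the deposited scale, while quantile normalization gave 381 higher and 244 lower, and median ratio scaling gave 515 and 262. The 4 calls and their direction held under both scalings.

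**Figure D1:**
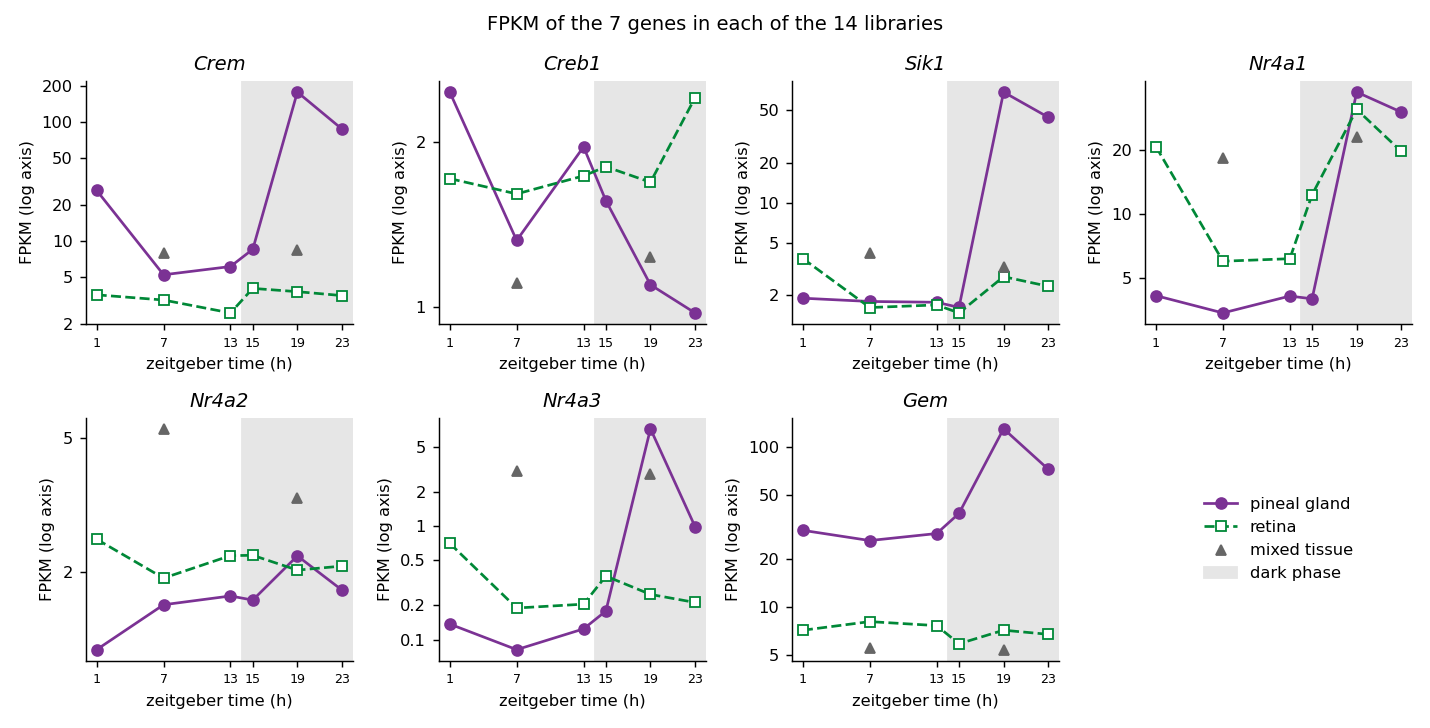
FPKM on a log axis against zeitgeber time in hours for each of the 7 genes, in the pineal gland (filled circles), the retina (open squares) and mixed tissue (triangles), with the 10 h of darkness shaded; each point is 1 library. Crem, Sik1, Nr4a1, Nr4a2, Nr4a3 and Gem stand highest at ZT19 in the pineal gland, Nr4a2 by little (2.23 FPKM, against 1.17 to 1.76 FPKM at the other times). Creb1 ranges there from 0.975 FPKM at ZT23 to 2.47 FPKM at ZT1.

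Creb1 (gene ID 81646; rn4 chr9:63170785-63234727) had 2.47, 1.32, 1.96, 1.56, 1.10 and 0.975 FPKM in the pineal gland at the 6 times (ZT1, 7, 13, 15, 19 and 23). Both late dark values lay below all 3 light values, an order whose share over all genes was not counted. The late dark mean was 1.04 ± 0.0869 FPKM (SD, n = 2) and the light mean was 1.92 ± 0.574 FPKM (SD, n = 3). The difference of -0.50 (SE 0.17, 95% interval -0.87 to -0.13) had an adjusted p of 0.0952 and did not pass the threshold; over 19 alternatives it lay between -0.79 and -0.35. These levels are low, and counting error is a larger share of them than of the FPKM of Crem or Gem. The shorter of its 2 transcripts was listed at 0 in the pineal gland at ZT1, ZT13 and ZT19, and only their sum was used. In the retina it lay between 1.61 and 2.41 FPKM and was highest at ZT23.

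Crem (gene ID 25620; rn4 chr17:62770633-62837670) had 26.6, 5.18, 6.08, 8.49, 179 and 87.5 FPKM in the pineal gland at these 6 times. Both late dark values lay above all 3 light values, and ZT1 stood above the later light times. The late dark mean was 133 ± 64.9 FPKM (SD, n = 2) and the light mean was 12.6 ± 12.1 FPKM (SD, n = 3). Crem rose by 3.57 on the log2 scale (SE 0.52, adjusted p = 0.00341). Without the ZT1 library the difference was 4.26. With pineal libraries fitted alone, the adjusted p was 0.0537, past the threshold no longer.

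Sik1 (gene ID 59329; rn4 chr20:10282203-10291735) had 1.90, 1.80, 1.77, 1.62, 68.3 and 44.1 FPKM in the pineal gland at the same 6 times. Its 4 values from ZT1 to ZT15 were nearly level, and the late dark libraries stood far above them. The late dark mean was 56.2 ± 17.1 FPKM (SD, n = 2) against a light mean of 1.82 ± 0.0693 FPKM (SD, n = 3). The rise of 4.31 (SE 0.25, adjusted p = 1.69e-05) was the largest among the 6 genes tested.

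Nr4a1 (gene ID 79240; rn4 chr7:140012807-140020589) had 4.13, 3.43, 4.12, 3.99, 37.6 and 30.3 FPKM in the pineal gland over the 6 times. The late dark mean was 33.9 ± 5.19 FPKM (SD, n = 2) against 3.89 ± 0.403 FPKM in the light (SD, n = 3). The groups did not overlap, and the gene rose by 2.83 (SE 0.40, adjusted p = 0.00294).

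Nr4a2 (gene ID 54278; rn4 chr3:38866210-38871678) stayed low, at 1.17, 1.59, 1.69, 1.64, 2.23 and 1.76 FPKM in the pineal gland over the 6 times. Both late dark values were above all light values, yet the difference of 0.27 (SE 0.14, 95% interval -0.04 to 0.58) had an adjusted p of 0.246. The interval leaves room for no change and for a rise well below that of Nr4a1.

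Nr4a3 (gene ID 58853; rn4 chr5:64713468-64753306) had 0.137, 0.0816, 0.124, 0.179, 7.18 and 0.987 FPKM in the pineal gland over the 6 times. It stood out in a single library, ZT19, and the ZT23 value was also above every light value. As only 1 of the 12 time-series libraries reached 1 FPKM, it did not pass the filter of 1 FPKM in 2 libraries and was not tested there. Without that filter the difference was 1.86 (SE 0.48, adjusted p = 0.0765).

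Gem (gene ID 297902; rn4 chr5:25809543-26008249) had 30.2, 26.0, 28.8, 38.5, 131 and 73.0 FPKM in the pineal gland over the 6 times. It was the gene of the 7 with the highest light-phase level, and its late dark values lay above all others. The late dark mean was 102 ± 40.9 FPKM (SD, n = 2) against 28.3 ± 2.11 FPKM in the light (SD, n = 3), and the rise was 1.75 (SE 0.19, adjusted p = 0.000797). The listed span of 198.7 kb overlaps Rad54b, a DNA repair gene at 0.332 to 0.718 FPKM in the pineal gland, and whether reads kept strand is not given in the sources used here.

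Counted without a test, Crem, Sik1, Nr4a1, Nr4a2, Nr4a3 and Gem had both late dark pineal libraries above all 3 light ones, as had 9.74% of all tested genes. Where ZT15 was grouped with ZT19 and ZT23 as dark, no gene of the series passed limma's adjusted threshold (1205 had an unadjusted p under 0.05), and the differences of the 4 called genes were 2.32 for Crem, 2.84 for Sik1, 1.90 for Nr4a1 and 1.31 for Gem.

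**Figure D2:**
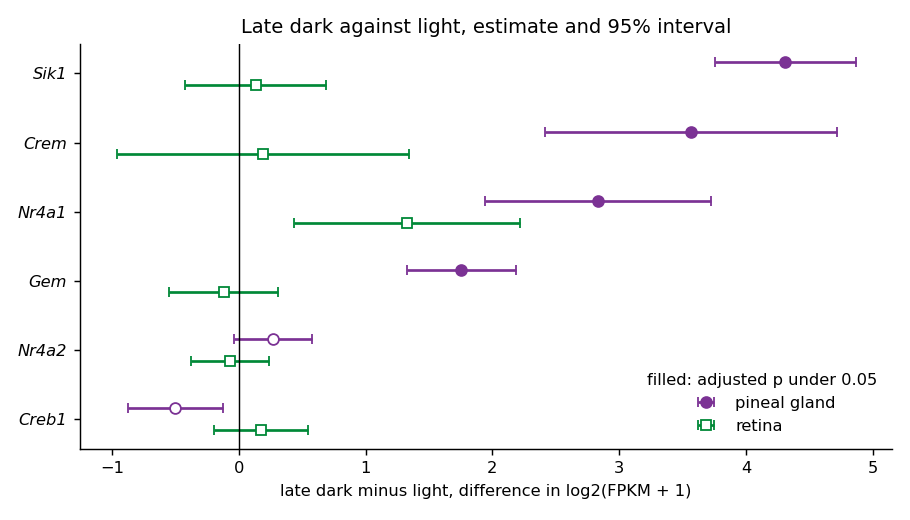
Late dark minus light difference in log2(FPKM + 1) with 95% interval for the 6 tested genes, in the pineal gland (circles, upper of each pair) and the retina (squares); filled symbols passed an adjusted p of 0.05. Pineal estimates run from 4.31 for Sik1 to -0.50 for Creb1, and no retina estimate is filled.

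The rise can be set against Creb1 by subtracting its log2 value in the same library. On that scale the late dark difference was 4.81 for Sik1, 4.07 for Crem, 3.33 for Nr4a1, 2.25 for Gem and 0.77 for Nr4a2. Every ratio carries the same error of Creb1, which moderation across genes cannot see: the moderated fit called all 5, and 10.6% of all genes as higher, with p-values that are too small. With each gene's own error, a choice made after seeing the data, Sik1 (SE 0.35, adjusted p = 0.009), Gem (SE 0.25, adjusted p = 0.0176), Crem (SE 0.59, adjusted p = 0.0327) and Nr4a1 (SE 0.56, adjusted p = 0.041) passed, and Nr4a2 (SE 0.25, adjusted p = 0.143) did not. That made 4 of 5 higher, against 3.52% of all genes. Because Creb1 was itself lower at ZT19 and ZT23, each difference relative to it is larger by 0.50 than the difference on its own.

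For Crem, Sik1, Nr4a1, Nr4a3 and Gem, most of the rise fell between the ZT15 and ZT19 libraries, 1 at each time. Gem at ZT15 had 38.5 FPKM, above its light values of 26.0 to 30.2 FPKM, and whether a small rise began earlier was not tested. As a percentage of its ZT19 excess in FPKM over the mean of ZT7 and ZT13, Crem had reached 1.65% at ZT15, Nr4a1 0.662%, Nr4a3 1.07% and Gem 10.7%, while Sik1 stood at -0.245%. At ZT19 Nr4a3 was 69.8 times its ZT7 and ZT13 mean, Sik1 38.3 times, Crem 31.8 times, Nr4a1 9.97 times and Gem 4.77 times. The median ZT19 to ZT7 ratio of the 9118 genes at or above 1 FPKM at ZT7 was 0.861.

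Values after ZT19 set the genes apart. At ZT23, Nr4a1 kept 78.3% of its ZT19 excess, Sik1 63.7%, Crem 47.2%, Gem 44.1% and Nr4a3 12.5%. At ZT1 Crem still stood at 12.1% of the excess, or 4.73 times its ZT7 and ZT13 mean. Gem stood at 2.66%, Nr4a1 at 1.07%, Nr4a3 at 0.482% and Sik1 at 0.178% at that time. These percentages come from 1 library per time and carry no error.

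**Figure D3:**
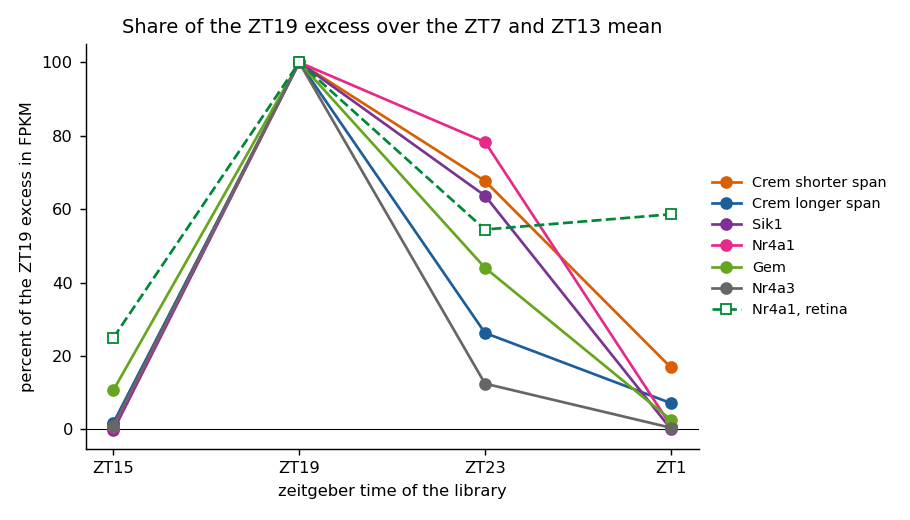
FPKM above the ZT7 and ZT13 mean as a percentage of the same quantity at ZT19, at ZT15, ZT19, ZT23 and ZT1, for the pineal gland (circles) and for Nr4a1 in the retina (open squares); each point is 1 library and all lines meet at ZT19 by construction. At ZT23 the pineal lines spread from 12.5% for Nr4a3 to 78.3% for Nr4a1, and at ZT1 the shorter Crem transcript stands highest among them at 16.9%.

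A 24-h cosine per tissue gave another description of the same libraries. In the pineal gland it called Crem (peak to trough 5.18 on the log2 scale, fitted peak ZT21.1, adjusted p = 0.00179), Gem (2.21, ZT19.8, adjusted p = 0.0194), Nr4a1 (3.30, ZT20.6, adjusted p = 0.0361) and Sik1 (4.88, ZT20.7, adjusted p = 0.0445), that is 4 of 6, against 20.7% of all tested genes. Nr4a2 (adjusted p = 0.421) and Creb1 (adjusted p = 0.783) were not called. Without pineal ZT7 the fitted peak to trough was 9.25 for Sik1, 7.44 for Crem, 5.88 for Nr4a1 and 4.12 for Gem. These are ranges of the fitted curve and exceed the measured log2 range of each gene. The full fit also exceeds it for Sik1, Crem and Nr4a1. The calls of Sik1 and Nr4a1 were lost without pineal ZT13, ZT19 or ZT23 and without any 1 retina library, with adjusted p up to 0.15 for Sik1 and 0.127 for Nr4a1 over all alternatives. The call of Gem was lost without pineal ZT19 (peak to trough 1.42, adjusted p = 0.0596) or ZT23 (adjusted p = 0.0609). Crem kept its call in all 18 alternatives, with a highest adjusted p of 0.0291.

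Crem was listed as 2 transcripts. The longer spans chr17:62770633-62837670 and the shorter chr17:62822636-62836430 in rn4, so the shorter one starts 52003 bases in and ends 1240 bases before the end of the longer. The deposited table gives Icer as another name of the gene without saying to which transcript it belongs. The longer had 9.88, 3.05, 4.34, 5.26, 89.8 and 26.3 FPKM in the pineal gland over the 6 times. The shorter had 16.7, 2.14, 1.74, 3.23, 89.4 and 61.1 FPKM.

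Both were nearly equal at ZT19, and the shorter stood above the longer at ZT23. At ZT23 the shorter kept 68.4% of its ZT19 level and the longer 29.3%. The shorter transcript made up 62.9%, 41.2%, 28.7%, 38.0%, 49.9% and 69.9% of the summed Crem FPKM over the 6 times, so its share was lowest at ZT13 and highest at ZT23. Both rose in the late dark, the shorter by 3.81 (SE 0.62, adjusted p = 0.00595) and the longer by 3.01 (SE 0.47, adjusted p = 0.00479). Their fitted peaks were ZT21.5 and ZT20.5. The difference between the 2 transcripts was not tested, and how Cufflinks split fragments common to both adds an error that FPKM does not show. In the retina the shorter was listed at 0 at ZT1 and stayed at or below 1.29 FPKM, and the longer stayed at or below 3.51 FPKM.

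**Figure D4:**
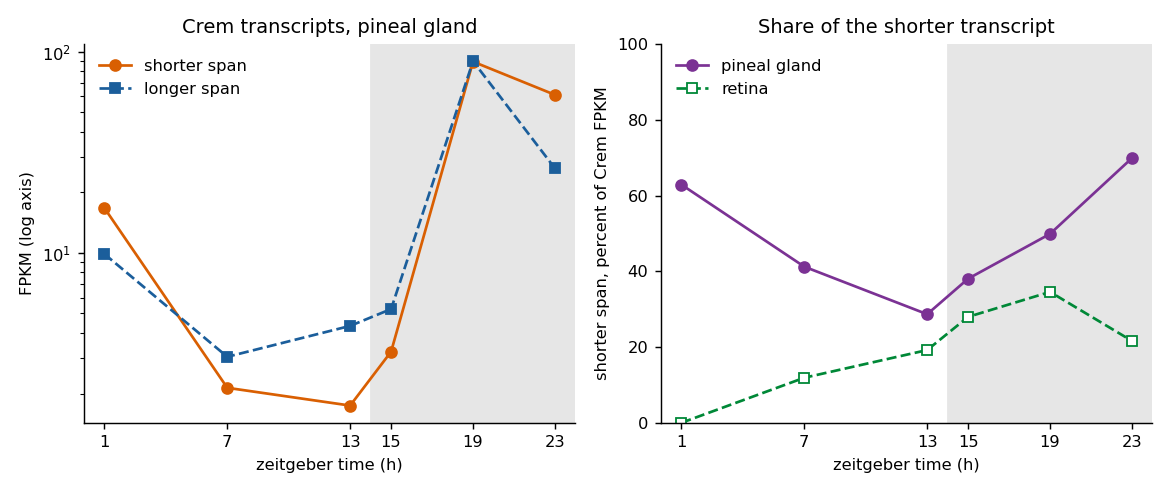
Left, FPKM (log axis) of the shorter (circles) and longer (squares) Crem transcript in the pineal gland against zeitgeber time in hours. Right, the shorter transcript as a percentage of summed Crem FPKM in the pineal gland (filled circles) and the retina (open squares); each point is 1 library, and the pineal share is highest, 69.9%, at ZT23.

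In the retina none of the 6 tested genes was called in the late dark comparison, where limma called 0.0096% of all genes higher (1 gene) and 1238 genes, 1 of the 6 (Nr4a1) among them, had an unadjusted p under 0.05. Nr4a1 had 20.8, 6.00, 6.17, 12.4, 31.2 and 19.7 FPKM in the retina over the 6 times. It was high at ZT19 and again at ZT1, so late dark and light overlapped. The difference was 1.33 (SE 0.40, adjusted p = 0.289); without the ZT1 retina library it was 1.87 (adjusted p = 0.00664) and passed. Lens markers (3 of 4 found) summed to 253, 33.7, 43.1, 48.5, 609 and 109 FPKM in these same retina libraries, which is the same order from highest to lowest as that of Nr4a1; their part in its values was not tested.

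Crem in the retina had 3.51, 3.17, 2.47, 3.98, 3.73 and 3.46 FPKM and differed by 0.19 (SE 0.52, 95% interval -0.96 to 1.34). As the error is shared between the tissues, this interval also holds the spread of Crem in the pineal gland. Sik1 ranged from 1.47 to 3.79 FPKM and was highest at ZT1, and Gem ranged from 5.86 to 8.07 FPKM and was highest at ZT7. Nr4a3 lay between 0.19 and 0.704 FPKM and was highest at ZT1, as was Nr4a2 within its range of 1.91 to 2.50 FPKM. None of the 7 genes had both late dark retina libraries above all 3 light ones, against 4.74% of all tested genes. The cosine fit called none of the 6 in the retina, against 1.02% of all genes; Nr4a1 came nearest and was the 1 gene with an unadjusted p under 0.05 (peak to trough 2.39, fitted peak ZT21.1, adjusted p = 0.196).

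The difference between the tissues was tested itself. The late dark difference was larger in the pineal gland than in the retina for Sik1 (by 4.17, SE 0.36, adjusted p = 0.000571) and Gem (by 1.87, SE 0.28, adjusted p = 0.0131), 2 of 6 genes, against 0.71% of all tested genes. The call of Gem was lost without the retina ZT7 (adjusted p = 0.0619), ZT13 (0.0511), ZT19 (0.1) or ZT23 (0.0873) library. For Crem the difference of 3.38 (SE 0.74) had an adjusted p of 0.0756, which passed without pineal ZT1 (0.00014) or ZT23 (0.0424). For Nr4a1 it was 1.51 (95% interval 0.24 to 2.77, adjusted p = 0.327), so unequal responses of the tissues were not shown. Fitted rhythms differed between the tissues for Crem (adjusted p = 0.0348), 1 of 6 genes, against 4.95% of all genes; Gem (0.108), Sik1 (0.307) and Nr4a1 (0.842) had higher adjusted p.

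Averaged over the day, Gem and Crem were higher in the pineal gland than in the retina. Gem averaged 54.6 ± 41.2 FPKM in the pineal gland and 7.08 ± 0.761 FPKM in the retina (SD, n = 6 each), a difference of 2.52 (SE 0.31, adjusted p = 3.91e-06). The gap was there in daytime too: the lowest pineal value of Gem, 26.0 FPKM, was above its highest retina value, 8.07 FPKM. Crem averaged 52.2 ± 69.7 FPKM in the pineal gland and 3.39 ± 0.524 FPKM in the retina, a difference of 2.45 (SE 0.70, adjusted p = 0.00561), and its lowest pineal value, 5.18 FPKM, was above its highest retina value, 3.98 FPKM.

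Against the retina, 36.9% of all tested genes were higher in the pineal gland and 32% lower, so 2 higher genes of 7 are no more than this background. Nr4a2 was lower by a small margin (difference -0.25, adjusted p = 0.0495), a call that 13 of 20 alternatives ended, among them leaving out any 1 of 10 libraries. Sik1 (1.24, adjusted p = 0.168), Nr4a1 (-0.63, adjusted p = 0.355), Nr4a3 (0.40, adjusted p = 0.391) and Creb1 (-0.16, adjusted p = 0.261) were not called.

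Mixed tissue was measured in 2 libraries, at ZT19 and ZT7, with no test between them. Crem had 8.32 and 7.96 FPKM at ZT19 and ZT7, Nr4a1 23.02 and 18.3, Sik1 3.27 and 4.16, and Gem 5.38 and 5.54. Nr4a3 had 2.89 and 3.05 FPKM in mixed tissue, above all pineal values but that of ZT19. Gem was higher in the pineal gland than in mixed tissue by 2.84 (SE 0.44, adjusted p = 4.25e-05) and Nr4a2 was lower by a difference of -0.98 (SE 0.15, adjusted p = 3.18e-05). Of all genes, 19.8% were higher and 45% lower in the pineal gland than in mixed tissue. After quantile normalization the Nr4a2 difference was -0.12 (adjusted p = 0.53) and the call was lost.

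Genes that act before, beside and after these 7 were followed through fixed lists, whose counts and medians stand against 3.04% higher, 4.23% lower and a median of -0.12 over all tested genes. The lists too were chosen with earlier results of these data known, so their counts are descriptions and no independent test. These counts come from the late dark comparison alone, in which ZT1 counts as light. The pineal cosine fit, which called 20.7% of all tested genes, called others, such as Creb3 (adjusted p = 0.012), Prkar1b (0.00169) and Rxrb (0.00203). It did not call some that the late dark comparison did, such as Irs2 (0.0589) and Pde4b (0.098). Of 10 CREB relatives and coactivators, 7 were tested in the pineal late dark comparison and limma called none (median -0.03; 1 had an unadjusted p under 0.05); the differences furthest from 0 were 0.36 for Atf1 (adjusted p = 0.0656), a close relative of CREB, and 0.33 for Creb3 (adjusted p = 0.374). Of 9 protein kinase A genes, 8 were tested, none was higher and 1 was lower (median -0.08), against 4.23% lower of all genes. That gene was Pkig, which encodes an inhibitor of the kinase, with 18.1 and 12.8 FPKM at ZT19 and ZT23 against 22.5 to 29.7 in the light (difference -0.71, adjusted p = 0.0409); leaving out pineal ZT7, ZT13, ZT19 or ZT23, or retina ZT13, ZT19 or ZT23, ended the call.

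Of 7 genes in the list of SIK relatives, their upstream kinase and their substrates, 3 were tested, 1 rose and 2 fell (median -1.41), against 3.04% higher and 4.23% lower of all genes. Stk11, which encodes the kinase LKB1 that activates SIKs, had 29.9 and 28.4 FPKM in the late dark and 9.50 to 18.5 FPKM in the light (difference 1.16, adjusted p = 0.011; the call was lost without pineal ZT7 or ZT19). Hdac5, a class IIa histone deacetylase that SIKs phosphorylate, had 19.2 and 19.4 FPKM in the late dark and 42.3 to 60.8 FPKM in the light (difference -1.41, adjusted p = 0.00264). Hdac9, another such enzyme and listed in the table as LOC687001, had 0.946 and 0.808 FPKM in the late dark and 3.53 to 5.62 FPKM in the light (difference -1.60, adjusted p = 0.00623).

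The calcium channel list held RGK relatives of Gem and the channel beta subunits to which these bind. Of 7 genes 5 were tested, 1 was higher and 1 lower (median -0.22), against 3.04% and 4.23% of all genes. Cacnb2 fell, with 5.89 and 5.33 FPKM in the late dark and 11.4 to 15.1 FPKM in the light (difference -1.11, adjusted p = 0.00265). Cacnb1 was low, with 1.09 and 1.25 FPKM in the late dark and 0.305 to 0.654 FPKM in the light (difference 0.61, adjusted p = 0.0402); the 7 libraries that ended the Pkig call when left out also ended this one. The retinoid X receptors, with which NR4A proteins can pair, gave no call among 3 (median -0.35; 1 had an unadjusted p under 0.05), with -0.51 for Rxrg (adjusted p = 0.0618) and -0.35 for Rxrb (adjusted p = 0.308).

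Of 25 known cAMP-inducible genes, 19 were tested in the pineal gland, 9 rose and none fell (median 1.47), against 3.04% higher and 4.23% lower of all genes and their median of -0.12. Irs2, an adaptor of the insulin receptor, had 85.7 and 39.1 FPKM in the late dark against 2.03 to 2.79 FPKM in the light (difference 4.07, adjusted p = 2.32e-05). Dusp1, a phosphatase of MAP kinases, had 70.4 and 33.9 FPKM against 2.43 to 3.90 FPKM (difference 3.64, adjusted p = 4.36e-05). A pair of phosphodiesterases that break down cAMP rose as well, Pde4b by 2.47 and Pde4d by 1.65. Mat2a, an enzyme that makes the methyl donor S-adenosylmethionine, rose by 2.12, Rgs2, a regulator of G proteins, by 2.07, the clock gene Per1 by 1.50 and the antiproliferative gene Btg2 by 1.47. The Per1 call was lost without pineal ZT7 or ZT19 and the Rgs2 call without pineal ZT19. Of the 10 not called, Aanat had the largest difference of the list (4.71, adjusted p = 0.0542). It had 650 and 857 FPKM in the late dark and 396 FPKM at ZT1, which counts as light, against 7.05 and 6.35 FPKM at ZT7 and ZT13. The cosine fit called Aanat in the pineal gland (adjusted p = 0.000179). Dio2 differed by 2.45 (adjusted p = 0.0592), and the others not called lay between -0.20 and 1.09.

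Fos, Egr1 and Junb, immediate early genes often read beside the NR4A genes, are named here after their values were seen. Fos had 12.4 and 13.1 FPKM in late dark pineal glands against 11.1 to 17.2 FPKM in the light (difference -0.05, adjusted p = 0.964). Egr1 had 19.4 and 10.6 FPKM there against 5.35 to 7.31 FPKM (difference 1.09, adjusted p = 0.337). Junb, the smallest of the 9 rises in the pineal gland, had 10.8 and 10.1 FPKM against 4.12 to 5.79 FPKM (difference 0.96, adjusted p = 0.0303). Its call was lost without pineal ZT7, ZT19 or ZT23. In the retina Egr1 had 299 and 170 FPKM in the late dark, 600 at ZT15 and 4.19 to 47.3 FPKM in the light (difference 3.96, adjusted p = 0.116). Fos had 47.0 and 25.1 FPKM in the retina in the late dark, 51.0 at ZT15 and 3.78 to 19.6 FPKM in the light (difference 2.15, adjusted p = 0.237). No gene of any of these lists was called by limma in the retina, where 8 of them had an unadjusted p under 0.05.

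**Figure D5:**
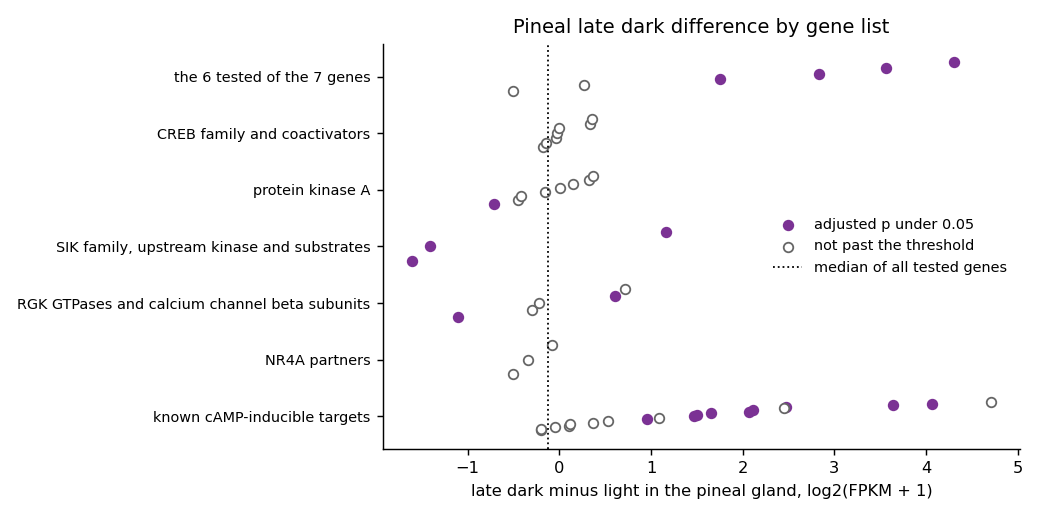
Late dark minus light difference in log2(FPKM + 1) in the pineal gland for the tested members of each gene list, 1 point per gene; filled points passed an adjusted p of 0.05 and the dotted line is the median of all tested genes, -0.12. The highest points of the cAMP-inducible targets and of the 6 tested genes lie beyond 3.5, while the CREB family stays between -0.18 and 0.36.

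The genes whose profiles were most like each of the 4 risers were found by Pearson correlation of log2(FPKM + 1) over the 12 pineal and retina libraries, among 1208 genes that span at least 1 log2 unit in the pineal gland. These values describe shared differences between the tissues as well as between times, and libraries are common to all genes. Most like Crem were Sh2d4b (r = 0.989), Rcan1 (0.988), Dclk3 (0.984) and Rhobtb3 (0.984). Rcan1, an inhibitor of calcineurin, had 119 FPKM at ZT19 and 31.6 FPKM at ZT1 in the pineal gland, against 15.6 FPKM at ZT7. Most like Sik1 were Ptch1 (0.988), the hedgehog receptor, Pde4b (0.977), Spata2L (0.976) and Zrsr1 (0.969); Zrsr1 has near-identical relatives and its values are uncertain. Ptch1 had 192 and 147 FPKM in late dark pineal glands against 9.79 to 16.2 FPKM in the light.

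Nr4a1 had no neighbour as close: Ankrd52 (0.951), Shroom3 (0.923), Dusp1 (0.918) and Coq10a (0.915) led. Ankrd52, a subunit of a protein phosphatase complex, shared its high retina values, with 21.9 FPKM at ZT1 and 29.7 FPKM at ZT19 against 10.4 FPKM at ZT13. Most like Gem were Man2a1 (0.993), Calhm2 (0.992), Rhob (0.990) and Rassf3 (0.989). Rhob, itself a small GTPase, had 76.0 and 63.0 FPKM in late dark pineal glands against 27.1 to 32.9 FPKM in the light. Among the 6 tested genes, the log2 profiles over these 12 libraries were closest for Crem with Gem (0.895) and Crem with Sik1 (0.884). Nr4a1 and Gem shared little over both tissues together (0.068). In the pineal gland both were highest at ZT19 and second at ZT23, and no correlation was taken within that tissue.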

How the data were processed

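Per the labels' protocols, polyadenylated RNA was sequenced as paired ends. Cufflinks 1.2.0, TopHat 1.3.1 and the rn4 build stand in the submitters' processing notes. The authors deposited FPKM per RefSeq transcript; no read counts were used, so exact depth is unknown. The FPKM of 16932 transcripts were summed per gene ID to 16472 genes. Table starts count from 0, so 1 was added to each.

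The log2(FPKM + 1) values of genes with at least 1 FPKM in at least 2 libraries were tested with limma 3.58.1 in R 4.3.3, two-sided, with a mean-variance trend: 10416 genes in the 12 time-series libraries (6 residual degrees of freedom) and 11656 in all 14 libraries. Late dark (ZT19, ZT23) was compared with light (ZT1, ZT7, ZT13), and ZT15 had its own mean. A 24-h cosine gave rhythms. Times of 1 phase, or of 1 tissue, stand as replicates, so errors hold daily change as well as spread between pools. The error of a gene was pooled over the tissues in a fit, except with pineal libraries fitted alone. Adjusted p-values are Benjamini-Hochberg. The depth estimate rests on the lowest values of olfactory receptor transcripts. The code of the phase and cosine fits was checked on simulated data with independent normal noise of 1 size for all genes. That setting is simpler than these libraries, so it does not test how the fits handle unequal spread.

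The members and lists were chosen with earlier results of these data known. Genes named from a list are those past the pineal late dark test, up to 8 by size, or otherwise the 2 furthest from 0. List genes were matched by symbol or RefSeq gene ID, and promoters come from RefSeq (GRCr8), whose coordinates are not set against rn4. Alternatives changed the pseudocount, filter, scaling, ZT15, libraries left out and the fit.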

Additional observations from a re-analysis of the deposited data

Results flagged for a closer look

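The late dark difference was larger in the pineal gland than in the retina for Sik1, by 4.17 on the log2 scale, and for Gem, by 1.87, each by a test of the difference itself. The Gem call was lost in 6 of 18 alternatives and the Sik1 call in 1. For Crem the test of the difference in fitted rhythm between the tissues gave an adjusted p of 0.0348. That rhythm test was not repeated in the alternatives, and 4.95% of all tested genes passed it. The late dark difference of Crem between the tissues did not pass (adjusted p = 0.0756).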

How the results depend on the processing

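Of the 6 genes tested, the 4 that rose in the pineal late dark became 0 when ZT15 was grouped with the dark libraries. They stayed 4 with each library left out in turn. The 2 calls of a difference between pineal gland and retina became 1 without the filter on low values and 0 with ZT15 in the dark, and were 1 to 3 with a library left out. The 4 rhythm calls in the pineal gland became 2 without the filter and 1 with pineal libraries alone, and were 1 to 4 with a library left out. The 0 calls in the retina late dark comparison became 0 to 1 with a library left out. Small retina differences reversed: Sik1 to -0.0393 with ZT15 in the dark and to between -0.0179 and 0.418 with a library left out, Nr4a2 to 0.0385 under quantile normalization and 0.037 under median ratio scaling, and Gem to 0.0211 and 0.026 under the same scalings. Creb1 in pineal gland against retina reversed to 0.0318 under quantile normalization, and Nr4a3 lay between -0.0502 and 0.534 with a library left out. The cause was not tested. Over all genes, pineal late dark calls ranged from 163 (without ZT19) to 1600 (without ZT1) with a pineal library left out, and were 121 with pineal libraries alone. With time of day as a block, pairing pineal and retina libraries by time, the Nr4a2 call between the tissues was lost (difference -0.25, adjusted p = 0.0602), and the other members kept their side of the threshold. Exact depth is unknown, so its limit on each gene was not measured.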
